A study of Homo sapiens with 6 samples.

Results

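CTF1 and the genes of the interleukin 6 (IL6) family pathway were followed in HCT116 cells, a human colorectal cancer line, after transfection with mimics of the microRNA miR-8485. The 10 genes described first are the cytokines CTF1, LIF and IL11, the receptor chains IL6R, IL6ST, LIFR and OSMR, the kinase JAK1, the transcription factor STAT3 and the inhibitor SOCS3, taken by gene name from the 58735 genes listed. They were selected on the values described here, that is on the difference between the transfected and the control cells, with CTF1 proposed for its rise. Their levels and differences are therefore given as a description without a p-value.

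Total RNA was sequenced from 6 libraries of wild-type HCT116 cells, 3 from cells transfected with a control (CTR, replicates 1 to 3) and 3 from cells transfected with the miR-8485 mimics (replicates 1 to 3). The study's methods give a mimic concentration of 50 nM and collection 48 h after transfection, and describe the libraries as independent biological replicates. All 6 libraries come from the same cell line, so the spread between them is that of transfected cultures and not of patients. Each library held 17473874 to 18480047 fragments on the listed genes. Values are FPKM, in which the fragments of a gene are scaled to its listed length and to the library total. Comparisons of levels between different genes rest on that listed length, which need not be the length of the transcript expressed. Of 7 epithelial markers, 6 had a mean of at least 1 FPKM (VIL1 did not), while none of 4 immune and none of 3 endothelial markers did, and CD3E was at 0 in every library. Of 4 fibroblast markers, COL1A1 alone reached 1 FPKM, and their sum was 4.09 to 4.42 FPKM in CTR and 6.29 to 6.43 FPKM in the miR-8485 libraries. The summed level of the epithelial markers was 2613 to 2838 FPKM in CTR and 1751 to 1838 FPKM in the miR-8485 libraries. The abundant keratins KRT8, KRT18 and KRT19 carried this difference. CDX2 went the other way, from a mean of 16.0 FPKM in CTR to 28.2 FPKM, and EPCAM and CDH1 overlapped between the groups. The part of these markers in the results was not tested. These are bulk samples, in which fewer expressing cells and less RNA per cell cannot be told apart.

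Nearly all cytokines of the IL6 family signal through receptor complexes that share the chain gp130, the product of IL6ST, whereas IL31 uses IL31RA with OSMR. Cardiotrophin 1, the product of CTF1, and LIF use LIFR beside gp130, oncostatin M uses OSMR or LIFR, and IL6 and IL11 each use a receptor chain of their own. The occupied complex activates JAK1, JAK1 phosphorylates STAT3, and STAT3 induces SOCS3, which in turn blocks the kinase and the receptor. In the intestinal epithelium this pathway is known for its part in regeneration and in the growth of tumours.

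The sequence of the mimic is shown because bases 2 to 8 of a microRNA, its seed, pair with 3′ UTRs of target transcripts. The capitals mark the seed of the mimic as the study's supplementary methods print it, with a length of 17 bases. The RNA sequence is followed by 23-base stretches of 3′ UTRs with the 7 bases complementary to the seed in capitals, taken from hg38 with the GENCODE release 44 annotation. The stretch of IL6ST is chr5:55940145-55940167, those of LIFR, copies 3 and 4 of its 5 counted from the 5′ end, are chr5:38478426-38478448 and chr5:38476796-38476818, and that of SOCS3 is chr17:78357036-78357058, all on the minus strand.
miR-8485 mimic: cACACACAcacacguau
IL6ST: attgctaaTGTGTGTatatatat
LIFR, copy 3: agttgagtTGTGTGTttatgtgc
LIFR, copy 4: ttaaaagtTGTGTGTtaagggga
SOCS3: agggcagtTGTGTGTtggggtgg

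Copies of TGTGTGT were counted, overlapping ones included, in the longest annotated 3′ UTR of each gene. IL6ST held 1 copy in 5987 bases, LIFR held 5 copies in 6927 bases and SOCS3 held 1 copy in 1640 bases. The 3′ UTRs of CTF1, LIF, IL11, IL6R, OSMR, JAK1 and STAT3 held no copy. The share of the 10 genes with a copy was thus 30.0%, beside 30.2% of 10673 tested genes with an annotated 3′ UTR. A copy is a match of letters and was not tested as a binding site.

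CTF1 was the gene of this group that was higher after transfection by the widest margin, by 6.31 times in mean FPKM. LIF, IL11, IL6ST, LIFR, OSMR, JAK1 and SOCS3 were all lower in the miR-8485 libraries, by 1.36 times for JAK1 to 1.95 times for OSMR, and IL6R and STAT3 were higher by 1.36 and 1.20 times. For none of the 10 genes did the 3 CTR libraries overlap the 3 miR-8485 libraries, as was the case for 66.5% of the 12349 genes whose mean over all libraries reached 1 FPKM. All 10 passed this filter on the mean over both groups, although CTF1 in CTR and LIFR after transfection were under 1 FPKM, and in the fit to these 12349 genes all 10 were past the threshold, an adjusted p of 0.05, with 3 higher and 7 lower. The same fit placed 59.6% of all tested genes past the threshold, 29.1% upward and 30.5% downward. Since these differences chose the genes, nothing is read from their counts. The median difference was -0.59 over the 10 genes and -0.0041 over all tested genes, on the log2(FPKM + 0.1) scale used for every fold change given as log2, miR-8485 minus CTR.

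**Figure D1:**
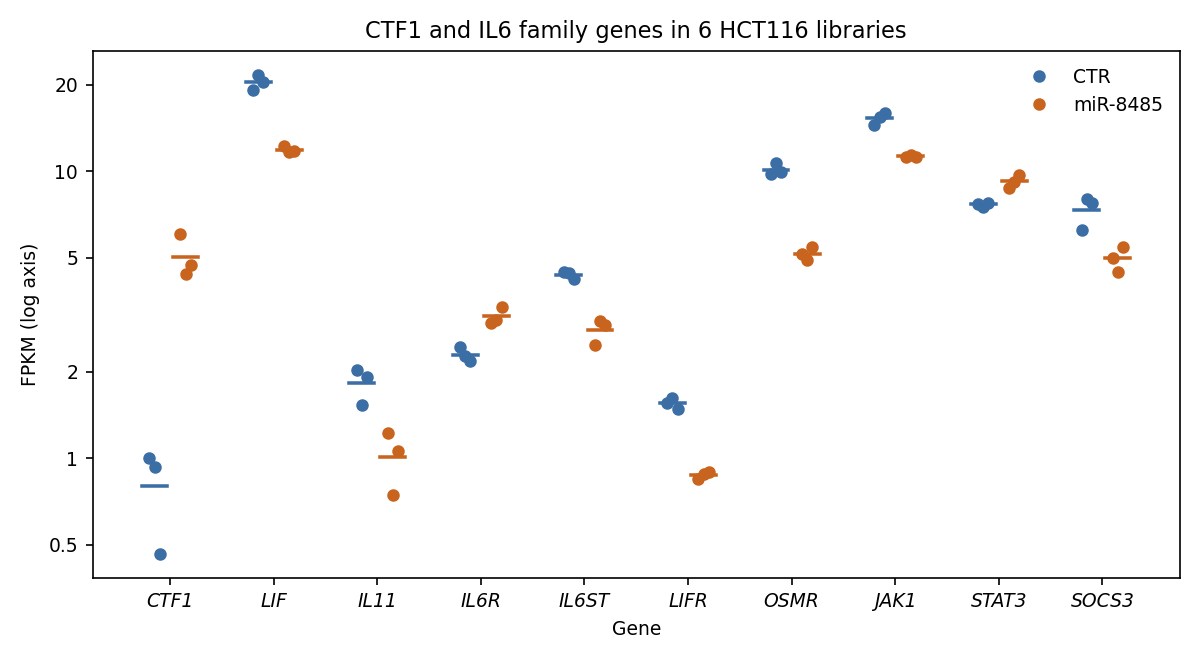
FPKM of the 10 genes on a log axis, with a point for each library and a bar at the mean of the 3 libraries of a group, CTR in blue and miR-8485 in orange. The points of CTF1 move from 0.465 to 1.0 FPKM in CTR up to 4.39 to 6.02 FPKM, those of IL6R and STAT3 move up by less, and those of the other 7 genes move down.

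Among the ligands, CTF1 (ENSG00000150281, chr16:30896607-30903560, plus strand) had 1.0, 0.930 and 0.465 FPKM in CTR and 6.02, 4.39 and 4.70 FPKM in the miR-8485 libraries. These levels rest on 30, 28 and 14 fragments in CTR and on 180, 132 and 149 fragments after transfection. CTR replicate 3 was the lowest library and held fewer fragments than CTR replicates 1 and 2, while every miR-8485 library lay above every CTR library. Group means were 0.798 ± 0.291 FPKM (SD, n = 3) and 5.04 ± 0.868 FPKM (SD, n = 3), which is 2.56 ± 0.26 (standard error) on the log2 scale. Without CTR replicate 3 it was 2.26. Of the 10721 protein-coding genes tested, CTF1 ranked 1 by rise and 18 by absolute log2 fold change. The place by rise depended on the setting: it was 6 without CTR replicate 3, 5 with a pseudocount of 1 and 39 in the voom fit to the 14820 protein-coding genes with at least 10 fragments.

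LIF (ENSG00000128342, chr22:30240447-30246851, minus strand), a cytokine that acts on stem and epithelial cells, had 19.2, 21.7 and 20.4 FPKM in CTR and 12.2, 11.6 and 11.7 FPKM in the miR-8485 libraries. The spread within each group was small beside the distance between them, with means of 20.4 ± 1.24 and 11.9 ± 0.313 FPKM (SD, n = 3 each). On the log2 scale LIF differed by -0.78 ± 0.06 (standard error). LIF and CTF1, ligands of the same pair of receptor chains, therefore differed in opposite directions.

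IL11 (ENSG00000095752, chr19:55364389-55370463, minus strand), a cytokine with a role in epithelial repair, had 2.03, 1.53 and 1.92 FPKM in CTR and 1.23, 0.745 and 1.06 FPKM after transfection. Means were 1.83 ± 0.264 and 1.01 ± 0.246 FPKM (SD, n = 3 each), a difference of -0.81 ± 0.21 (standard error) on the log2 scale. The gap between the groups was narrow, since CTR replicate 2 lay at 1.53 FPKM against 1.23 FPKM in miR-8485 replicate 1, and the lowest library rested on 36 fragments.

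IL6R (ENSG00000160712, chr1:154405193-154469450, plus strand), the chain that binds IL6, was the receptor gene that was higher after transfection. Its level was 2.43, 2.27 and 2.17 FPKM in CTR and 2.95, 3.04 and 3.37 FPKM in the miR-8485 libraries. Means were 2.29 ± 0.130 and 3.12 ± 0.220 FPKM (SD, n = 3 each) or 0.43 ± 0.09 (standard error) in log2 terms.

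IL6ST (ENSG00000134352, chr5:55935095-55994993, minus strand) encodes gp130, the shared signalling chain. It was measured at 4.46, 4.41 and 4.20 FPKM in CTR and at 2.48, 3.0 and 2.92 FPKM after transfection. The CTR libraries lay close together and all miR-8485 libraries were lower, with means of 4.36 ± 0.135 and 2.80 ± 0.282 FPKM (SD, n = 3 each) and a log2 difference of -0.62 ± 0.09 (standard error).

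LIFR (ENSG00000113594, chr5:38474963-38608354, minus strand), the chain that pairs with gp130 for LIF and cardiotrophin 1, had the lowest level of the 4 receptor genes. Its values were 1.56, 1.62 and 1.49 FPKM in CTR and 0.849, 0.881 and 0.898 FPKM in the miR-8485 libraries. Each group was tight, with means of 1.55 ± 0.0657 and 0.876 ± 0.0248 FPKM (SD, n = 3 each) and a log2 difference of -0.76 ± 0.15 (standard error).

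OSMR (ENSG00000145623, chr5:38845858-38945596, plus strand), the oncostatin M receptor chain, showed the largest decrease among the 10 genes. It had 9.73, 10.6 and 9.90 FPKM in CTR and 5.16, 4.89 and 5.44 FPKM after transfection. Means were 10.1 ± 0.487 and 5.16 ± 0.272 FPKM (SD, n = 3 each), which is -0.95 ± 0.06 (standard error) on the log2 scale. The 3′ part of OSMR overlaps RICTOR on the opposite strand by 7678 bases. RICTOR, a subunit of the kinase complex mTORC2, had means of 2.02 FPKM in CTR and 0.977 FPKM after transfection and fell by 0.98 on the log2 scale (limma, adjusted p = 0.00045), and whether the fragments were assigned by strand was not given in the sources used here.

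JAK1 (ENSG00000162434, chr1:64833229-64966504, minus strand), the main kinase of the gp130 complex, had 14.5, 15.4 and 16.0 FPKM in CTR and 11.2, 11.4 and 11.2 FPKM in the miR-8485 libraries. The transfected libraries agreed closely with each other and lay below all CTR libraries. Means were 15.3 ± 0.760 and 11.3 ± 0.107 FPKM (SD, n = 3 each), and the log2 difference was -0.44 ± 0.05 (standard error).

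STAT3 (ENSG00000168610, chr17:42313324-42388568, minus strand), the transcription factor downstream of JAK1, had 7.70, 7.51 and 7.76 FPKM in CTR and 8.75, 9.17 and 9.69 FPKM after transfection. Every transfected library was higher, and the difference was the smallest in size among the 10 genes. Means were 7.66 ± 0.130 and 9.21 ± 0.472 FPKM (SD, n = 3 each), a log2 difference of 0.26 ± 0.06 (standard error). STAT3 was no longer past the threshold when FPKM were rescaled to TPM, which shifted the median difference over all tested genes to -0.12 and that of STAT3 to 0.15, or 0.27 above that median.

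SOCS3 (ENSG00000184557, chr17:78356778-78360077, minus strand), the feedback inhibitor that STAT3 induces, had 6.25, 8.03 and 7.72 FPKM in CTR and 4.99, 4.45 and 5.45 FPKM in the miR-8485 libraries. CTR replicate 1 was the lowest control library and still lay above the transfected ones. Means were 7.33 ± 0.951 and 4.96 ± 0.503 FPKM (SD, n = 3 each), which is -0.55 ± 0.11 (standard error) in log2 terms. STAT3 mRNA and the mRNA of its target SOCS3 thus differed in opposite directions.

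Some of the 10 genes share bases with other genes. In the file, 6 of the 10 genes overlap 13 other genes, of which 3 had a mean of at least 1 FPKM: RICTOR, RAVER2 and the processed pseudogene AC016596.1. RAVER2 shares 4 bases with JAK1 and was at -0.01 on the log2 scale (limma, adjusted p = 0.90). AC016596.1 lies within IL6ST over 78 bases on the opposite strand and rose by 1.20 on the log2 scale (limma, adjusted p = 0.0145), with at most 72 fragments in a library. CTF1, IL11, STAT3 and SOCS3 overlap no other gene in the file.

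The order of the levels differed between the groups. In CTR, LIF was the highest at 20.4 FPKM, followed by JAK1 and OSMR, then STAT3 and SOCS3, whose libraries overlapped, then IL6ST and IL6R, then IL11 and LIFR, which overlapped, with CTF1 last at 0.798 FPKM. In the miR-8485 libraries LIF remained the highest at 11.9 FPKM, ahead of JAK1 at 11.3 FPKM and STAT3 at 9.21 FPKM. OSMR at 5.16 FPKM, CTF1 at 5.04 FPKM and SOCS3 at 4.96 FPKM came next and could not be ordered, since their libraries overlapped. IL6R and IL6ST also overlapped there, as did IL11 and LIFR, the lowest pair.

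**Figure D2:**
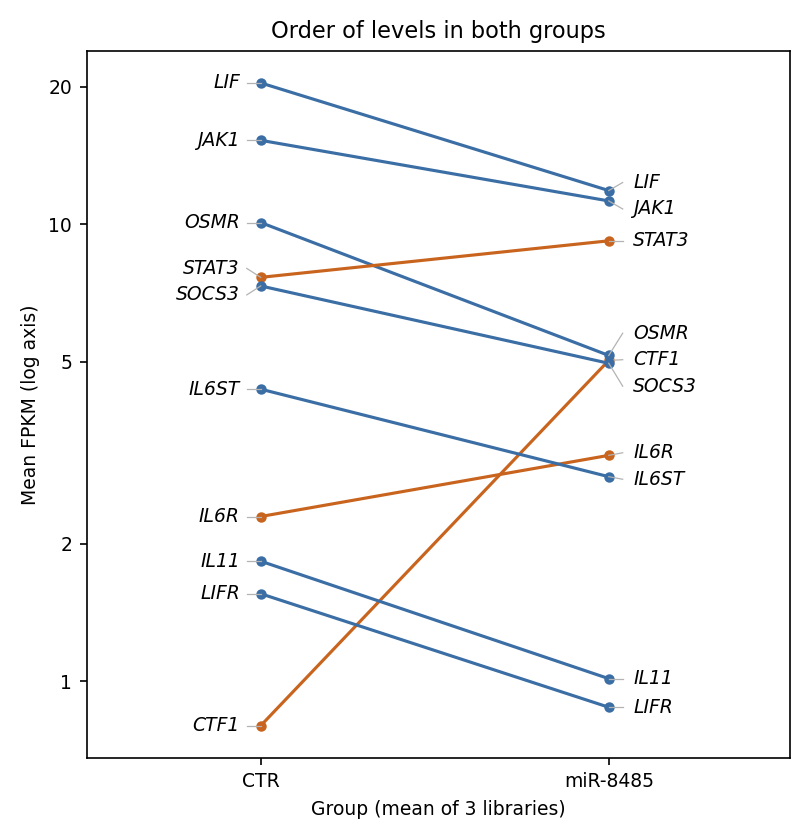
Mean FPKM of 3 libraries for each of the 10 genes in CTR and in miR-8485 on a log axis, joined by a line for each gene (orange where the miR-8485 mean is higher, blue where it is lower). CTF1 climbs from the last place at 0.798 FPKM to 5.04 FPKM, beside OSMR and SOCS3, and IL6R crosses IL6ST.

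Ratios taken within a library do not depend on its total. LIF exceeded CTF1 by 19.2, 23.3 and 43.9 times in the CTR libraries and by 2.03, 2.65 and 2.50 times in the miR-8485 libraries. The high ratio of 43.9 belongs to CTR replicate 3, the library with 14 CTF1 fragments. IL6R stood at 0.526 ± 0.0170 of IL6ST in CTR and at 1.12 ± 0.0936 after transfection (SD, n = 3 each), so that the mRNA of the binding chain went from below that of the shared chain to about its level. SOCS3 relative to STAT3 went from 0.958 ± 0.133 to 0.539 ± 0.0471, and JAK1 relative to STAT3 from 2.0 ± 0.101 to 1.22 ± 0.0654. Ratios among the receptor genes that were all lower moved less. OSMR to IL6ST went from 2.32 ± 0.121 to 1.86 ± 0.226 and OSMR to LIFR from 6.50 ± 0.220 to 5.90 ± 0.294. LIFR to IL6ST went from 0.356 ± 0.00920 to 0.314 ± 0.0253. For these ratios the libraries of the groups did not overlap either.

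**Figure D3:**
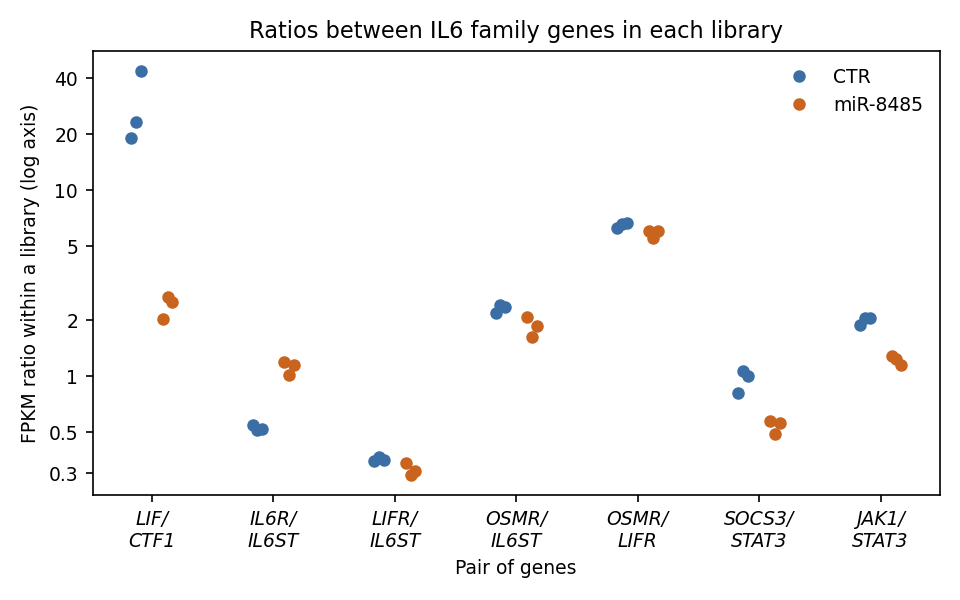
Ratio of the FPKM of a pair of genes within each library on a log axis, with a point for each of the 3 CTR (blue) and 3 miR-8485 (orange) libraries. The ratio of LIF to CTF1 drops from between 19.2 and 43.9 to between 2.03 and 2.65, IL6R to IL6ST rises, and the ratios among LIFR, OSMR and IL6ST shift downward by less.

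The genes nearest to CTF1 in pattern were sought among all tested protein-coding genes, by the mean absolute difference over the 6 libraries of log2(FPKM + 0.1) minus the CTR mean. The 5 nearest were PRR15L at a distance of 0.280, KRTAP3-1 at 0.352, BDH2 at 0.358, FKBP7 at 0.372 and HIST1H2BD at 0.395. PRR15L went from a mean of 0.704 to 4.03 FPKM and BDH2, an enzyme of ketone and siderophore metabolism, from 1.34 to 6.88 FPKM. HIST1H2BD, a histone gene, was the most abundant of the 5, with means of 8.75 and 33.2 FPKM. These genes were chosen for their likeness and carry no test.

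Other genes of the pathway were taken from lists made by role, 30 genes outside the group of 10. Of these, 21 had a mean of at least 1 FPKM, and 4 of the 21 rose, 11 fell and 6 did not pass the test (limma, adjusted p of 0.05 over all tested genes). The share called was 71.4%, beside 59.6% of all tested genes, and the median log2 fold change was -0.27, beside -0.0041. The lists were made with earlier results of these data known, so these values are no independent test. EBI3 and JAK2 reached the minimum of 1 FPKM through CTR, with means of 0.672 and 0.971 FPKM in the miR-8485 libraries.

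Both ligand genes that could be tested fell, as did 30.5% of all tested genes, and 2 genes are too few to read a share from. CLCF1, the cardiotrophin-like cytokine, had 4.38, 4.25 and 4.59 FPKM in CTR and 2.65, 2.49 and 2.29 FPKM after transfection and fell by 0.81 on the log2 scale (limma, adjusted p = 0.000116). EBI3, a soluble receptor-like subunit of IL27, went from 1.62 ± 0.217 to 0.672 ± 0.310 FPKM and fell by 1.22 on the log2 scale (limma, adjusted p = 0.00945), on 37, 43 and 33 fragments in CTR and 13, 10 and 25 after transfection. CLCF1 lay well apart between the groups, whereas the highest miR-8485 library of EBI3 was at 1.02 FPKM against 1.42 FPKM in the lowest CTR library.

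Genes of other receptor chains and of the proteases that shed receptors fell in 3 of 4 cases, beside 30.5% of all tested genes. With 4 genes nothing is read from this share. IL27RA, the IL27 receptor, went from 12.2 ± 0.786 to 8.04 ± 0.680 FPKM and fell by 0.59 on the log2 scale (limma, adjusted p = 0.00047). ADAM10 and ADAM17, which release soluble IL6R from the cell surface, had log2 fold changes of -0.27 (limma, adjusted p = 0.00247) and -0.48 (limma, adjusted p = 0.00194). IL11RA, the IL11 receptor, was at 1.91 ± 0.203 FPKM in CTR and 2.04 ± 0.211 FPKM after transfection, and its libraries overlapped (limma, adjusted p = 0.56).

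Kinase and STAT genes went both ways. TYK2 rose by 0.22 (limma, adjusted p = 0.017) and JAK2 fell by 0.49 (limma, adjusted p = 0.0286), both on the log2 scale. Both calls were weak: TYK2 lost it after rescaling to TPM (adjusted p = 0.189), without miR-8485 replicate 1 (0.0572) and without miR-8485 replicate 3 (0.0604), and JAK2 lost it in 5 of the 6 fits that leave out a library, with adjusted p from 0.0624 to 0.0722. STAT5B was at 1.13 FPKM in both groups (limma, adjusted p = 0.911).

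In the branch from gp130 to RAS, GRB2 and SOS1 fell and SHC1 and PTPN11 did not pass the test. GRB2, the adaptor that recruits SOS1, went from 63.7 ± 1.60 to 40.0 ± 1.17 FPKM and fell by 0.67 on the log2 scale (limma, adjusted p = 1.68e-05). SOS1, the exchange factor that activates RAS, went from 4.22 ± 0.202 to 2.78 ± 0.202 FPKM and fell by 0.58 (limma, adjusted p = 0.00061). PTPN11, which encodes the phosphatase SHP2, had means of 29.7 ± 1.06 and 29.1 ± 1.69 FPKM, and SHC1 had means of 36.0 ± 2.92 and 36.7 ± 1.49 FPKM (SD, n = 3 each).

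Of 8 inhibitor genes, 3 fell, 3 rose and 2 did not pass the test, with a median log2 fold change of 0.10. Of all tested genes 30.5% fell and 29.1% rose. SOCS1, which like SOCS3 inhibits JAK kinases, was at 10.8, 8.77 and 9.57 FPKM in CTR and at 5.77, 3.69 and 4.21 FPKM after transfection and fell by 1.10 on the log2 scale (limma, adjusted p = 0.00077). SOCS2, of the same family and best known for restraining growth hormone signalling, went the other way, from 2.32 ± 0.302 to 3.43 ± 0.196 FPKM, and rose by 0.55 (limma, adjusted p = 0.00325). PIAS1, which encodes a SUMO ligase that inhibits STAT proteins, fell by 0.53 (limma, adjusted p = 0.00228) while PIAS3, the inhibitor of STAT3 in the same family, rose by 0.38 (limma, adjusted p = 0.0094). The phosphatase genes PTPN1 and PTPN6 had log2 fold changes of -0.27 and 0.28 (limma, adjusted p = 0.00707 and 0.00582). CISH at 0.40 (limma, adjusted p = 0.0881) and PTPN2 at -0.09 (limma, adjusted p = 0.357) did not pass the test, although CISH passed as higher in both voom fits (adjusted p = 0.0298 and 0.0406).

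**Figure D4:**
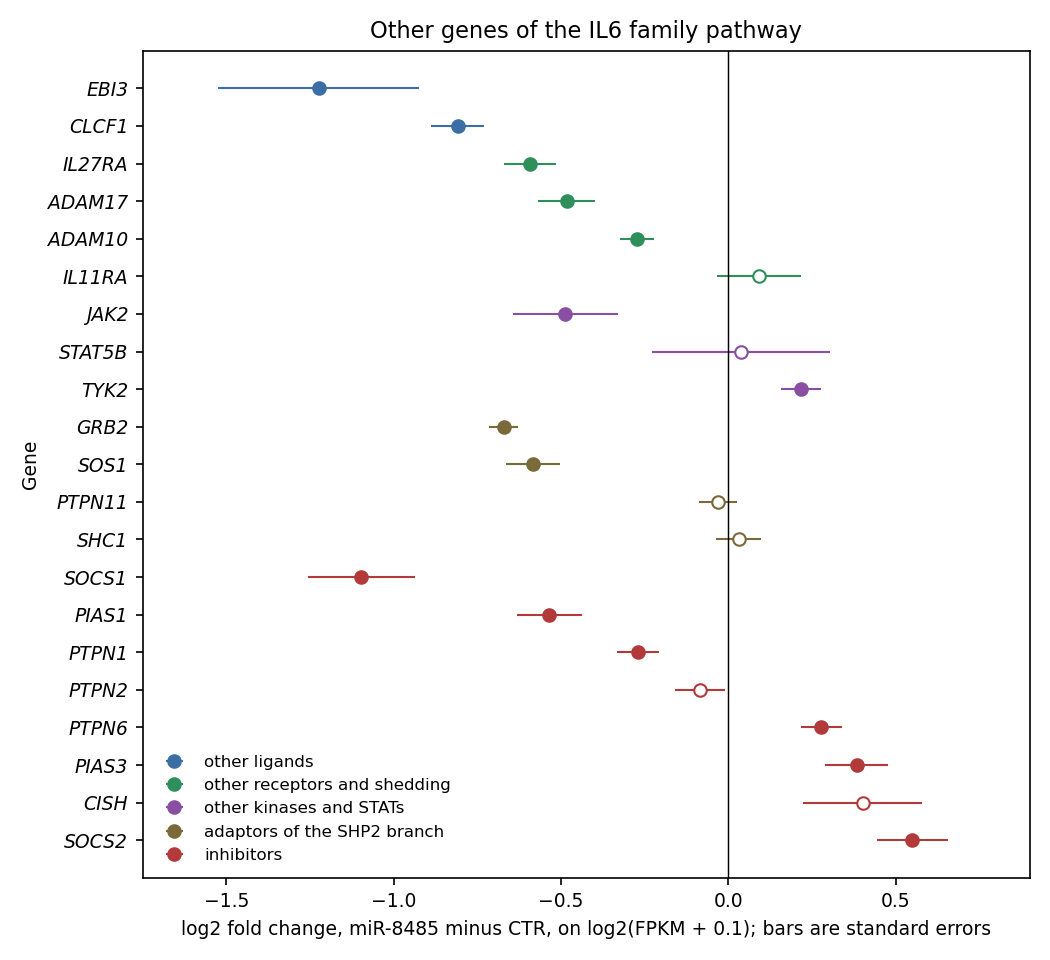
log2 fold change (miR-8485 minus CTR, on log2(FPKM + 0.1)) of the 21 tested pathway genes outside the group of 10, with standard errors, coloured by role, filled where the adjusted p was under 0.05 and open where it was not. Both ligand genes lie to the left of 0, and the 8 inhibitor genes lie on both sides, from -1.10 for SOCS1 to 0.55 for SOCS2.

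The ligand genes IL6, OSM, CNTF, IL27 and IL31 had a mean under 1 FPKM, as did the receptor genes CNTFR and IL31RA, STAT5A and GAB1. With LRG1 of the list below these are 10 genes, none of which held more than 113 fragments in a library. IL6 had 4 fragments in CTR replicate 2, 1 in miR-8485 replicate 1 and none in the other libraries, so that IL6R, at 2.17 to 3.37 FPKM, was measured in cells in which IL6 mRNA was near 0. OSM, the ligand of OSMR, had 0, 4 and 1 fragments in CTR and 6, 8 and 2 after transfection. In the limma fit to all 31768 genes above 0, which called 22.1% of them, 0 of the 10 genes passed and 1, GAB1, had an unadjusted p under 0.05. GAB1, a docking protein for SHP2, was at 0.556 ± 0.0591 FPKM in CTR and 0.270 ± 0.0732 FPKM after transfection (limma, adjusted p = 0.099), and it passed with voom on the recovered fragments at a log2 fold change of -1.07 (adjusted p = 0.00093), as 1 of the 10.

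Genes known as targets of STAT3 were listed separately, 16 in all, and 15 had a mean of at least 1 FPKM. Of these 15, 11 fell, 2 rose and 2 did not pass the test, with a median log2 fold change of -0.46. The share called downward was 73.3%, beside 30.5% of all tested genes.

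The widest fall was that of PIM1, a kinase gene that promotes survival of tumour cells, from 13.3, 10.8 and 13.2 FPKM in CTR to 3.63, 2.77 and 3.99 FPKM, or by -1.83 on the log2 scale (limma, adjusted p = 3.88e-05). FOS, a subunit of the transcription factor AP-1, followed with 3.29, 3.45 and 3.28 FPKM in CTR and 1.5, 1.42 and 1.54 FPKM after transfection, a log2 difference of -1.12 (limma, adjusted p = 3.89e-05). ICAM1, an adhesion molecule, went from 1.80 ± 0.291 to 0.881 ± 0.163 FPKM and fell by 0.96 (limma, adjusted p = 0.00446). For all 3 of these genes the CTR libraries lay above the miR-8485 libraries. ICAM1 reached the minimum of 1 FPKM through CTR, since its miR-8485 mean was under it.

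CEBPB, a transcription factor of the acute phase response, fell by 0.82 on the log2 scale, from 72.1 ± 6.72 to 40.6 ± 0.602 FPKM (limma, adjusted p = 4.57e-05). CEBPD, of the same family and also known to respond to IL6, was instead the gene of this list that rose by the widest margin, from 3.74, 4.04 and 3.96 FPKM to 8.26, 6.60 and 7.45 FPKM, or by 0.90 on the log2 scale (limma, adjusted p = 0.000107). The related genes thus moved apart, with CEBPB the more abundant in both groups. MYC, the other gene that rose, went from 102 ± 8.20 to 123 ± 3.03 FPKM, or by 0.27 on the log2 scale (limma, adjusted p = 0.00701), and it did not pass after quantile normalization (adjusted p = 0.0512).

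Other genes of the list fell by less. BCL3, a nuclear cofactor of NF-kB, fell by 0.79, HIF1A, the oxygen-regulated transcription factor, by 0.57, JUNB, an AP-1 subunit, by 0.48 and VEGFA, the angiogenic factor, by 0.46 on the log2 scale (limma, adjusted p from 3.58e-05 to 0.00165). The survival genes MCL1 and BCL2L1 fell by 0.26 and 0.23 (limma, adjusted p = 0.0015 and 0.00183). IRF1 fell by 0.25 (limma, adjusted p = 0.0339), a call that was lost in 5 of the 6 fits that leave out a library, with adjusted p up to 0.109, and in the fit to all genes above 0 (adjusted p = 0.0716). TIMP1 and BIRC5 did not pass the test, with log2 fold changes of -0.13 and -0.09 (limma, adjusted p = 0.169 and 0.242), and both passed as lower after rescaling to TPM.

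**Figure D5:**
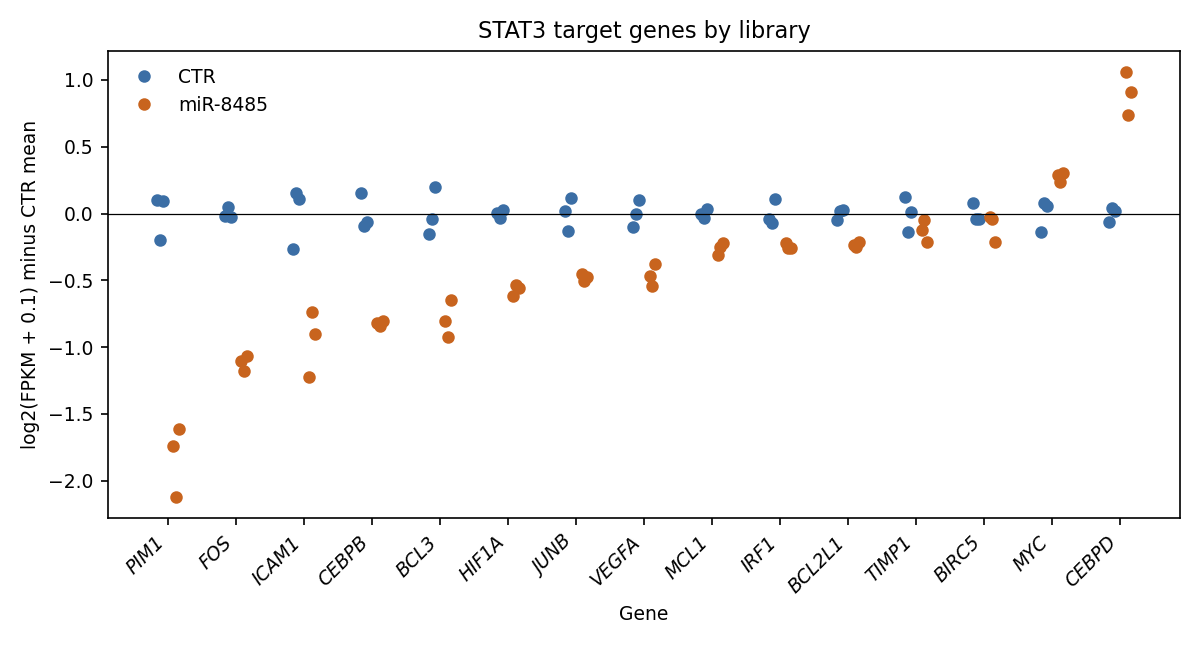
log2(FPKM + 0.1) minus the CTR mean for 15 STAT3 target genes, with a point for each of the 3 CTR (blue) and 3 miR-8485 (orange) libraries. PIM1 lies lowest after transfection, at a mean of -1.83, and CEBPD highest, at 0.90.

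Copies of the seed complement were set beside the differences. The 3 genes of the group with a copy, IL6ST, LIFR and SOCS3, were all lower, with a median log2 fold change of -0.62. Of the 7 without a copy, 4 were lower and 3 higher, with a median of -0.44. These genes were chosen on their differences, so nothing is read from this split. OSMR, the gene with the largest decrease, and LIF and IL11 held no copy. Among the 21 other pathway genes, 10 held a copy, or 47.6%, beside 30.2% of the tested genes with an annotated 3′ UTR. Of these 10, 6 fell and 0 rose, and of the 11 without a copy 5 fell and 4 rose. ADAM17, among the 6, held 4 copies in the longest 3′ UTR but 0 in that of its canonical transcript. JAK2 held 19 copies, PIAS1 13 and STAT5B 12, and of these 3 genes JAK2 and PIAS1 fell while STAT5B did not pass the test. The call of JAK2 was weak, as given above. All copies of STAT5B, and all of JAK2 but that at base 2875, overlap within a TG repeat and are not separate sites. Several of those of PIAS1 overlap as well. Among the STAT3 targets, 4 of the 5 with a copy fell and 0 rose, and of the 10 without a copy 7 fell and 2 rose. Over all tested genes, 44.1% of the 3223 with a copy fell and 20.0% rose, and 29.2% of the 7450 without a copy fell and 31.9% rose. None of these shares was adjusted for the length of the 3′ UTR, and a longer one has more places for a copy. The median length over the tested genes was 1460 bases. Among the 21 pathway genes, those with a copy had 404 (IL11RA) to 8738 bases (ADAM10). Those without had 272 (PTPN6) to 4275 bases (SOS1).

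No promoter window was matched by symbol for CTF1 and LIF, so their promoters were not searched. For the other 8 of the 10 genes, 13 promoter windows from RefSeq were matched, from 250 bases before to 50 bases after a gene start (assembly GRCh38.p14). They were searched on both strands for the STAT motif TTCNNNGAA and for the AP-1 motifs TGAGTCA and TGACTCA, since STAT3 and the AP-1 genes FOS and JUNB were among the genes that differed. The STAT motif was in 2 of the 3 windows of LIFR and in no other window of the 8 genes, and 7.66% of 35116 promoters held it. An AP-1 motif was in 2 of the 13 windows, the only window of IL11 and the only window of IL6R, and 4.95% of the 35116 promoters held it. IL11 was lower and IL6R higher after transfection. The capitals mark the motif. The stretches of LIFR are chr5:38595552-38595580 and chr5:38557631-38557659 on the minus strand, that of IL11 is chr19:55370543-55370569 on the minus strand and that of IL6R is chr1:154405370-154405392 on the plus strand.
LIFR, first window: ccattactagTTCCTTGAAccacaatcca
LIFR, other window: gctttggagtTTCATCGAAaggtctttaa
IL11: gcagggagggTGAGTCAggatgtgtca
IL6R: tccgccgctcTGAGTCAtgtgcg

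FPKM values are relative to the total of a library and do not measure RNA per cell. Protein levels, secretion and phosphorylation of STAT3 were not measured in these libraries.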

How the data were processed

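RNA-seq libraries were prepared from total RNA of HCT116 cells with a VAHTS kit. Per the submitters' processing notes, reads were mapped to hg38 with HISAT2 2.0.5 and counted per gene with featureCounts 1.5.0-p3, and the deposited values are FPKM that the authors computed from these fragments. The strand setting of the counting was not given in the sources used here. In each library 100% of the values above 0 were whole multiples of 1 fragment (tolerance 0.05), which gave the fragments behind each value. Libraries of 1 group differed by a chi-square per gene of 2.75 to 10.5, more than counting error alone, and those of different groups by 61.0 to 70.3. Within a group, CTR replicate 1 stood apart, at 10.5 and 8.46 from CTR replicates 2 and 3. The other pairs within a group were at 2.75 to 3.87.

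log2(FPKM + 0.1) was fitted with limma 3.58.1 in R 4.3.3 (variance trend, two-sided, Benjamini-Hochberg over the 12349 genes whose mean reached 1 FPKM, threshold 0.05). Other steps used Python 3.11.15 with pandas 2.3.3 and numpy 2.4.6. The 10 genes, the lists and the tests were chosen with earlier results of these data known. Of the pathway lists, 2 genes are not reported here and were left out of every count of the lists. CCND1 was left out of the STAT3 targets because its fold change had been seen. Named were all 10 genes, listed genes past the threshold, the 5 most abundant of those that were not, the 5 genes nearest to CTF1 and genes overlapping the 10. IL11RA, CISH, STAT5B and the listed genes under 1 FPKM fall outside this rule and were named after their values were seen. Alternatives were other pseudocounts, filters and scalings, voom on fragments, a replicate block and leaving out each library.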

Additional observations from a re-analysis of the deposited data

How the results depend on the processing

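Under the 17 alternatives no called value reversed its direction. The 10 genes were chosen on this difference and every fit drew on the same 6 libraries, so their calls here are no independent support. They kept 3 higher and 7 lower past the threshold under each alternative, except after rescaling to TPM (2 higher, STAT3 lost) and with the minimum mean raised to 5 FPKM, where 5 of the 10 could be tested (1 higher, 4 lower). That minimum left fewer genes to test and gave 2303 genes that rose and 2417 that fell, 5 falling pathway genes of 10 tested and 7 falling STAT3 targets of 11 tested. Quantile normalization left 1 rising STAT3 target (MYC lost, the cause was not tested). Rescaling to TPM changed the share of rises among all calls from 48.8% to 35.6%. The log2 fold change of CTF1 was 1.75 with a pseudocount of 1 and 2.26 to 2.74 when a library was left out. No pairing by replicate number was seen. The correlations of the deviations of libraries with the same number were 0.07, 0.03 and -0.06, beside -0.09 to 0.06 for different numbers. Whether cultures with the same number were handled together was not given in the sources used here. With the replicate number as a block, 3634 genes rose and 3754 fell, the 10 genes stayed at 3 and 7, 4 pathway genes rose and 10 fell (JAK2 lost, adjusted p = 0.0621), and 2 STAT3 targets rose and 10 fell (IRF1 lost, adjusted p = 0.0605). Without a filter 10 STAT3 targets fell (IRF1 lost, adjusted p = 0.0716). Depth limited CTF1 in CTR, IL11, EBI3 and the genes under 1 FPKM, whose values rest on few fragments.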
